A study of Mus musculus with 6 samples.

Results

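The genes described here are 10 products of the later steps of neutrophil formation: the secondary granule and granule-associated genes Ltf, Camp, Ngp, Lcn2, Mmp8, Mmp9, Chil3 and Fcnb, and the neutrophil surface genes Cd177 and Cxcr2. They were fixed by name, and every probe set whose platform annotation gives exactly one of these symbols was read, which gave 11 probe sets for the 10 genes among 18193 named genes in all. RNA came from common myeloid progenitors (CMP), bone marrow cells that can still form granulocytes, monocytes, megakaryocytes and red cells. CMP of C57BL6 mice, with no treatment of the animals given in the labels, were stained with H2-DCFDA, whose fluorescence grows as reactive oxygen species (ROS) oxidise the dye. The fractions with the lowest and highest staining, each 15% to 20% of all CMP, were sorted, and 3 low-ROS and 3 high-ROS samples were hybridised to 1 array each. The labels give neither the age of the mice nor the surface markers of the CMP gate, nor whether separate mice or sorts lie behind the 3 samples of each group. The p-values thus measure the spread between samples that may be technical repeats. The Entrez Gene identifiers are 17002 for Ltf, 12796 for Camp, 18054 for Ngp, 16819 for Lcn2, 17394 for Mmp8, 17395 for Mmp9, 12655 for Chil3, 14134 for Fcnb, 68891 for Cd177 and 12765 for Cxcr2.

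Neutrophils are built in stages, and each stage fills its own kind of granule. Primary granules, with myeloperoxidase and the serine proteases, are filled at the promyelocyte stage. Secondary and gelatinase granules, with lactoferrin, cathelicidin, lipocalin and the matrix metalloproteases, follow at the myelocyte and later stages under the transcription factor C/EBP epsilon, and receptors such as CXCR2 mark cells close to release into the blood. Transcripts of the later stages are therefore best known from cells beyond the progenitor stage.

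C/EBP factors bind a palindrome whose core can be spelled TTGCNNAA, and the promoters that hold these letters are shown because they belong to granule genes measured here. RefSeq start sites (GRCm38.p6) were found for 9 of the 10 genes; Mmp9 was not among them. In the 250 bases before the start, searched on both strands, 5 of the 9 held the motif, against 9.55% of 27025 promoters of the same length. The 5 sequences follow, 5′ to 3′ on the strand of the gene, with the matches in capitals.
Ltf, chr9:111019042-111019291, plus strand: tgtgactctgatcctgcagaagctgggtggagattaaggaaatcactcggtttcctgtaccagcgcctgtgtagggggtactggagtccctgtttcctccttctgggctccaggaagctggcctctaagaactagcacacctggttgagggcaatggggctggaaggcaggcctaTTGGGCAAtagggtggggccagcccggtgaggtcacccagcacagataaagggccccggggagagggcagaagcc
Ngp, chr9:110419558-110419807, plus strand: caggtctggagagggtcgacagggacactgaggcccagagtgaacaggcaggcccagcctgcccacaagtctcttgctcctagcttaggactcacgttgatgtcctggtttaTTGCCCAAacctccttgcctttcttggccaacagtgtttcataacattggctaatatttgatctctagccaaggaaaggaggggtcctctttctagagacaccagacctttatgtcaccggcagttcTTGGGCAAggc
Lcn2, chr2:32387740-32387989, minus strand: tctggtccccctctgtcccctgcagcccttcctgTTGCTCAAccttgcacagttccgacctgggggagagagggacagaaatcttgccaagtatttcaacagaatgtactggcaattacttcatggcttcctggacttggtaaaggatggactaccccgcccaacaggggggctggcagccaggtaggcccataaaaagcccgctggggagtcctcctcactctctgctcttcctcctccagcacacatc
Mmp8, chr9:7558179-7558428, plus strand: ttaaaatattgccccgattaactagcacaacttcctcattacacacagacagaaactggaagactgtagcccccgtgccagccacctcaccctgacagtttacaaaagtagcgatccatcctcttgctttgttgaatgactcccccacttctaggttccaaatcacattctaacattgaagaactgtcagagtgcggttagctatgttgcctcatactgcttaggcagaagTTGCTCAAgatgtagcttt
Fcnb, chr2:28084879-28085128, minus strand: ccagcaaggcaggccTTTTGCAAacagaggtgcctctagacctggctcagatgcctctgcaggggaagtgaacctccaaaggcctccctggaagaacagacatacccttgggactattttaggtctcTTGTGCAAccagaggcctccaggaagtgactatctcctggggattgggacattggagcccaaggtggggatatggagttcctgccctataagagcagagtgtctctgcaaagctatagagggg
Ngp and Fcnb held 2 matches each and the other three 1 each. The match of Ltf lay 75 to 68 bases before the start, and that of Mmp8 19 to 12 bases before it. The shorter letters GAGGAA, part of the site of the myeloid factor PU.1, were found in 5 of the 9 promoters (those of Cxcr2, Lcn2, Cd177, Mmp8 and Ltf) and in 23.1% of all. A match is a run of letters and not a measured binding site.

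All 10 genes gave signals far above the array medians, which lay between 40.4 and 42.5, and above the upper quartiles, between 195 and 208, on each of the 6 arrays. The lowest signal of any member was 418, for Cxcr2 on high-ROS replicate 3. None differed between the groups beyond the spread between arrays after adjustment: at an adjusted p under 0.05 (limma, Benjamini-Hochberg over all genes) 0 of 10 passed, where 0.0385% of all genes passed in the downward and 0.0165% in the upward direction. All 10 had a lower fitted level in high-ROS CMP, where 46% of all genes did; with quantile normalization 9 were lower and Camp was higher by 0.012. The median log2 fold change (high-ROS minus low-ROS) was -0.14, against 0.019 over all genes. All genes include many weak ones, and the values for genes as bright as the members were not computed. The 99th percentile of the signals was 3617, 3755 and 3686 on low-ROS replicates 1 to 3. On high-ROS replicates 1 to 3 it was 3600, 3750 and 3360, so this percentile was lowest on high-ROS replicate 3. The highest signal of an array was not: it was 15473 there and lowest, 15128, on low-ROS replicate 1. At an unadjusted p under 0.05, 1 of the 10 was lower, Cd177, where 3.37% of all genes were. Signals carry each probe set's own response, so they are not ranked between genes. In such bulk samples more cells of one kind and more RNA per cell cannot be told apart.

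**Figure D1:**
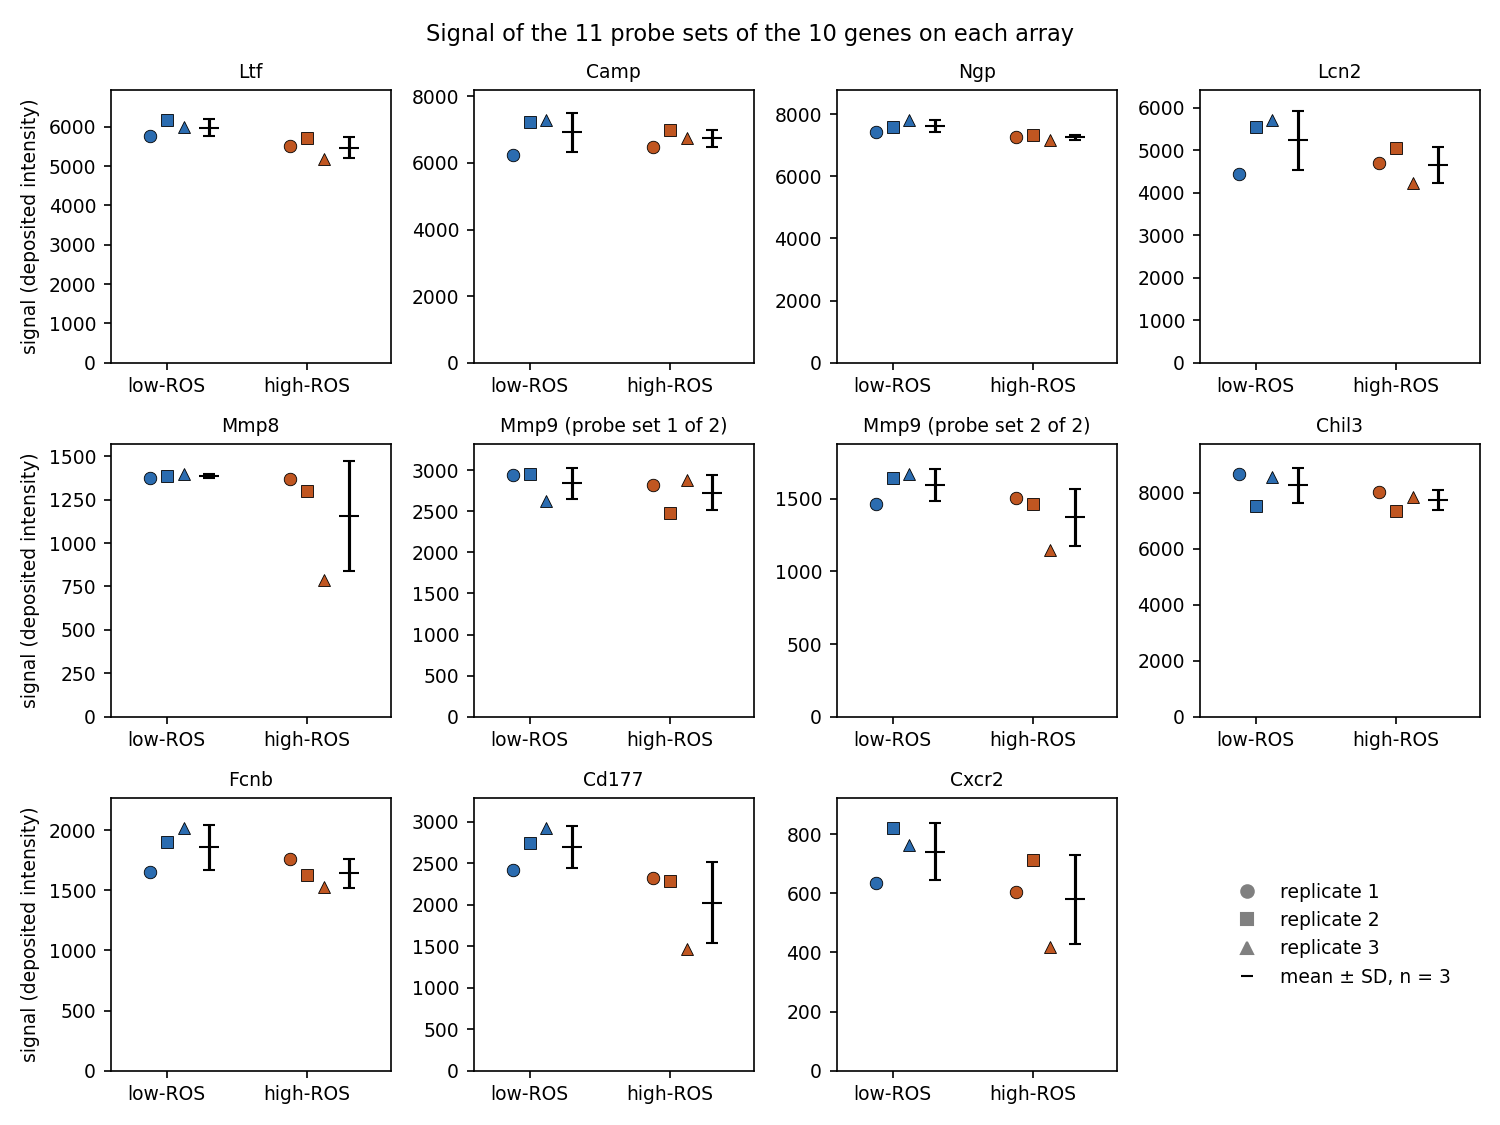
Deposited signal (linear, vertical axis from 0) of the 11 probe sets on the 3 low-ROS (blue) and 3 high-ROS (orange) arrays, with the mean and SD (n = 3) in black. High-ROS replicate 3, the orange triangle, is the lowest of the 6 arrays in 8 of the 11 panels.

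Among the soluble contents of secondary granules, Ltf encodes lactoferrin, the iron-binding protein that defines these granules. Its signals were 5759, 6183 and 5984 on low-ROS replicates 1 to 3 and 5512, 5717 and 5193 on high-ROS replicates 1 to 3. The groups did not overlap, by a narrow margin between 5759 and 5717. The means were 5976 ± 212 (SD, n = 3) and 5474 ± 264, a log2 fold change of -0.13 (SE 0.0722, 95% confidence interval -0.29 to 0.032, limma adjusted p = 0.702).

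Ngp, the neutrophilic granule protein, which is related to the cathelicidins, varied least in log2 signal among the high-ROS arrays. Its signals were 7430.3, 7583 and 7826 on the low-ROS arrays and 7268, 7339.5 and 7185 on the high-ROS arrays. Again the groups did not overlap, yet the means, 7613 ± 199.6 (SD, n = 3) and 7264 ± 77.5, were 1.05-fold apart (log2 fold change -0.067, SE 0.0631, limma adjusted p = 0.827). The 95% confidence interval, -0.21 to 0.071, held 0.

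Camp, the antimicrobial cathelicidin, lies on chromosome 9, as do Ngp and Ltf. Its signals were 6253, 7218 and 7302 on the low-ROS arrays and 6487, 6994 and 6760.3 on the high-ROS arrays. Low-ROS replicate 1 was the lowest of all 6, and the groups overlapped. The log2 fold change was -0.034 (SE 0.0785, 95% confidence interval -0.21 to 0.14, limma adjusted p = 0.948).

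Lcn2, the lipocalin that withholds iron from bacteria by binding siderophores, had signals of 4434, 5537 and 5718 on the low-ROS arrays and 4703, 5057 and 4217 on the high-ROS arrays. Low-ROS replicate 1 lay below 2 of the 3 high-ROS arrays. The log2 fold change was -0.16 (SE 0.107, 95% confidence interval -0.40 to 0.075, limma adjusted p = 0.740). Without low-ROS replicate 1 it was -0.28 (unadjusted p = 0.0206, adjusted p = 0.765), and without high-ROS replicate 3 it was -0.091.

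Of the matrix metalloproteases, Mmp8 is the neutrophil collagenase. Its signals were 1377, 1386 and 1399.9 on the low-ROS arrays and 1369.6, 1302 and 789.7 on the high-ROS arrays. Of the 6 arrays, 5 lay close together and high-ROS replicate 3 lay far below them. The means were 1388 ± 11.4 (SD, n = 3) and 1154 ± 317, and the log2 fold change of -0.30 (SE 0.178, 95% confidence interval -0.70 to 0.089, limma adjusted p = 0.708) was -0.055 (SE 0.0889) without that array.

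Mmp9, the gelatinase of the granules filled last, was read by 2 probe sets that did not follow each other. The brighter one, which stands for the gene, gave 2938, 2959 and 2627 on the low-ROS and 2818, 2481 and 2879 on the high-ROS arrays, with overlapping groups and a log2 fold change of -0.060 (SE 0.0942, limma adjusted p = 0.912). The other gave 1466, 1641 and 1674 on the low-ROS and 1508, 1467 and 1148 on the high-ROS arrays. On this second probe set high-ROS replicate 3 was the lowest of the 6 arrays, while on the first it was above the mean. With one test per probe set, the log2 fold change of the second was -0.22 (SE 0.127, limma adjusted p = 0.759). With the mean of the 2 probe sets, that of the gene was -0.14 (SE 0.0877, limma adjusted p = 0.774).

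Chil3, a chitinase-like protein that neutrophil precursors and macrophages secrete, had signals of 8690.2, 7543 and 8579 on the low-ROS arrays and 8027, 7337 and 7868 on the high-ROS arrays. In each group replicate 2 was the lowest, and the groups overlapped (log2 fold change -0.093, SE 0.0757, limma adjusted p = 0.793). Its log2 fold change was -0.16 when low-ROS replicate 2 was left out, -0.056 when low-ROS replicate 1 was and -0.055 when high-ROS replicate 2 was. Fcnb, a ficolin that recognises sugars on microbes, had 1656, 1903 and 2022 on the low-ROS and 1764, 1627 and 1531 on the high-ROS arrays. Low-ROS replicate 1 lay among the high-ROS arrays, and the log2 fold change was -0.18 (SE 0.108, limma adjusted p = 0.719). It was -0.26 (unadjusted p = 0.0460) without low-ROS replicate 1, -0.11 without low-ROS replicate 3 and -0.058 with the ratio of Gapdh control signals as a covariate.

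The widest differences were those of both surface genes. Cd177, a glycosylphosphatidylinositol-anchored neutrophil protein, had signals of 2419, 2739 and 2929 on the low-ROS arrays and 2328, 2281 and 1466 on the high-ROS arrays. The groups did not overlap, and high-ROS replicate 3 was far below the other five. The means were 2696 ± 258 (SD, n = 3) and 2025 ± 485, 1.35-fold lower in high-ROS CMP (log2 fold change -0.44, SE 0.161, 95% confidence interval -0.79 to -0.082). The unadjusted p was 0.0203 and the limma adjusted p over all genes 0.587. Without high-ROS replicate 3 the log2 fold change was -0.22 (unadjusted p = 0.0371, adjusted p = 0.7997), and without low-ROS replicate 2 or 3 the unadjusted p was above 0.05.

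Cxcr2, the chemokine receptor that draws mature neutrophils out of the marrow, had signals of 634, 822 and 764 on the low-ROS arrays and 606, 714 and 418 on the high-ROS arrays. The groups overlapped, since high-ROS replicate 2 lay above low-ROS replicate 1. The log2 fold change was -0.37 (SE 0.188, 95% confidence interval -0.78 to 0.043, limma adjusted p = 0.660), and it was -0.16 without high-ROS replicate 3. A list of CXCR2 ligands, Cxcr4 with its ligand and metalloprotease inhibitors had 4 of 9 genes lower and 5 higher, with 0 past the threshold. Among the higher ones, Cxcl1 (30.5 and 33.5), Cxcl5 (2.68 and 3.90) and Timp1 (9.42 and 11.5) had low- and high-ROS means below the array medians. The direction of such weak signals says little. Cxcr4, the receptor that holds neutrophils in the marrow, had 5067 ± 269 (SD, n = 3) and 4726 ± 60.8, a log2 fold change of -0.099 (SE 0.0733). Its ligand Cxcl12 stood at 0.38 (SE 0.297) on the same scale and the metalloprotease inhibitor Timp3 at -0.21 (SE 0.206).

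Across the 10 genes, 4 had groups that did not overlap, all lower in high-ROS CMP: Ltf, Ngp, Mmp8 and Cd177. Over all genes this held for 5.32%. With quantile normalization the count was 2, Ltf and Cd177, against 5.44% of all genes. Without low-ROS replicate 1, where groups of 2 and 3 arrays overlap less often, it was 8, against 9.66% of all genes. With 3 arrays in each group the smallest p of a 2-sided exact permutation test is 0.1, and the test was left out.

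The members did not move evenly over the arrays. High-ROS replicate 3 was the lowest of the 6 arrays for 7 of the 10 genes and lay on average 0.25 below their log2 means, with a range from -0.65 to 0.051. The other high-ROS arrays lay at -0.012 and -0.014. Low-ROS replicates 2 and 3 lay at 0.13 and 0.14, and low-ROS replicate 1, at 0.0048, lay with the high-ROS replicates 1 and 2 and was the lowest of its group for 8 of the 10 genes. Mmp8, Cd177 and Cxcr2 deviated most on high-ROS replicate 3, by -0.65, -0.65 and -0.61, while Camp and Chil3 lay at -0.014 and -0.023.

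The 3′ to 5′ signal ratio of the Gapdh control probe sets, a measure of RNA integrity and labelling, moved with this pattern. It was 3.19, 2.84 and 2.54 on low-ROS replicates 1 to 3 and 3.57, 2.997 and 4.53 on high-ROS replicates 1 to 3. In both groups the array with the highest ratio was the one on which most members were lowest, 8 of 10 genes among the low-ROS arrays and 7 of 10 among the high-ROS arrays. With the log2 ratio as a covariate, 6 of the 10 lay below 0 and 4 above it, and the median log2 fold change was -0.041. Cd177 then had -0.062 (SE 0.127) and Cxcr2 0.046 (SE 0.160), while Mmp9 had -0.19 (SE 0.0960) and Chil3 -0.14 (SE 0.0879). The ratio was higher on average in high-ROS CMP, so the covariate shares part of its spread with the groups, and its part in the differences cannot be told apart from theirs.

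**Figure D2:**
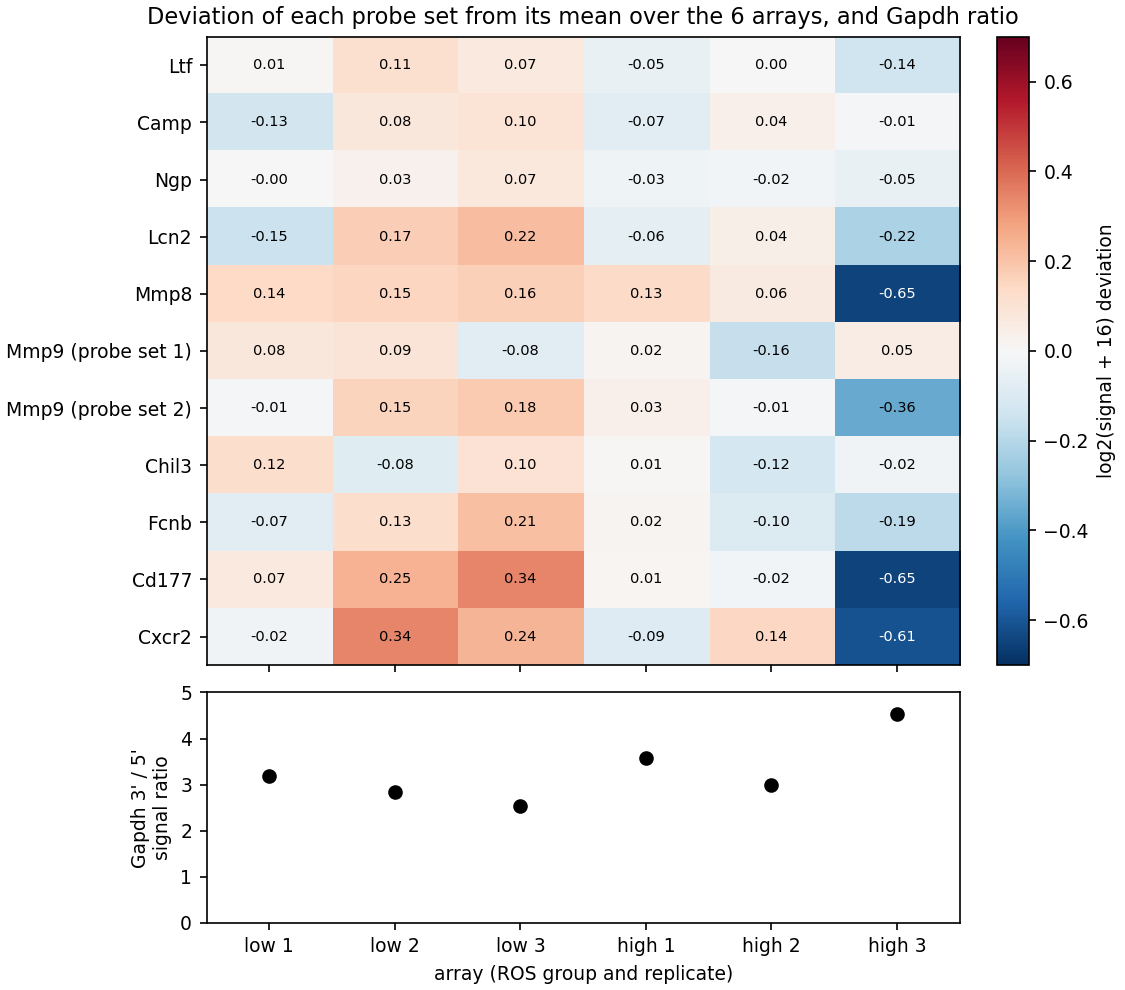
Upper panel, deviation of log2(signal + 16) of each probe set (rows) on each array (columns) from its mean over the 6 arrays; lower panel, the Gapdh 3′ to 5′ signal ratio of the same arrays. High-ROS replicate 3 has the highest ratio, 4.53, and the deepest negative deviations, -0.65 for Mmp8 and Cd177, while the first Mmp9 probe set is at 0.051.

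**Figure D3:**
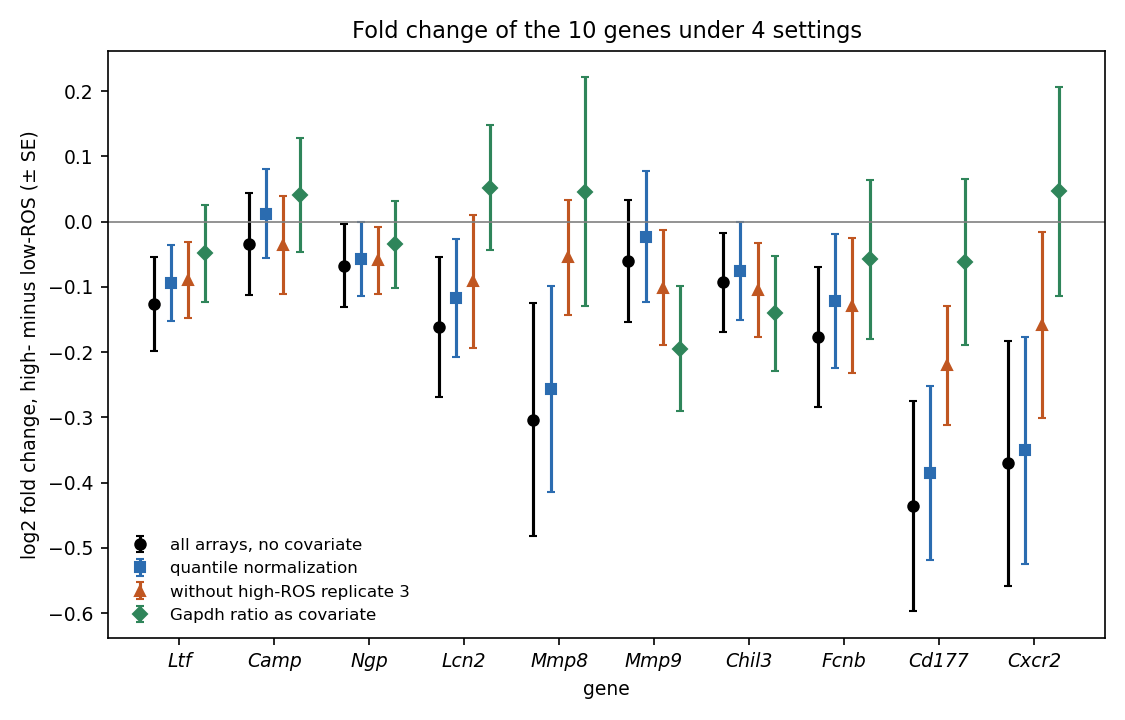
Log2 fold change (high-ROS minus low-ROS, ± SE) of the 10 genes with all arrays, after quantile normalization, without high-ROS replicate 3, or fitted beside the Gapdh ratio. Mmp8 goes from -0.30 to -0.055 without that array and to 0.046 with the covariate, while Chil3 lies between -0.14 and -0.076 in the settings plotted.

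Other late neutrophil genes, outside the 10, were read on the same arrays. Of 16 listed, 12 were measured; 8 had a lower and 4 a higher fitted level in high-ROS CMP. Their median log2 fold change was -0.033, and 0 passed the threshold, adjusted or not. S100a8 and S100a9, the calprotectin subunits, gave 12746 ± 494 (SD, n = 3) and 12643 ± 225 for the first and 12944 ± 302 and 12894.5 ± 222 for the second, in low- and high-ROS CMP. The highest signals of any probe set on the 6 arrays were 15128 to 15899. The log2 fold change was -0.31 (SE 0.179) for Csf3r, the receptor for granulocyte colony-stimulating factor. For Lyz2, lysozyme, it was -0.098 (SE 0.0675), and for Olfm4, a protein of a subset of secondary granules, 0.13 (SE 0.114). Lyz2, Wfdc21 and Itgb2l, Wfdc21 and Itgb2l being named after their values were seen, were lower with groups that did not overlap, 3 of 12 where 5.32% of all genes were. Ly6g, Retnlg, Fpr1 and Mmp25 are not analysed here, since no probe set carries their name alone.

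Genes of the earlier, primary granule stage were compared in the same fit. Of 8 measured, 6 had a higher and 2 a lower fitted level in high-ROS CMP. Their median log2 fold change was 0.10, and 0 passed the adjusted threshold. At an unadjusted p under 0.05, 2 were higher, where 4.44% of all genes were: the cystatin Cst7 (log2 fold change 0.42, SE 0.136) and cathepsin G, Ctsg (0.31, SE 0.103). These 2 genes and proteinase 3, Prtn3 (0.16, SE 0.0877), had groups that did not overlap, where 8.04% of all genes did so in this direction. Elane, neutrophil elastase, had 0.11 (SE 0.0944) and Mpo, myeloperoxidase, 0.057 (SE 0.0714). The difference between both lists was not tested.

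**Figure D4:**
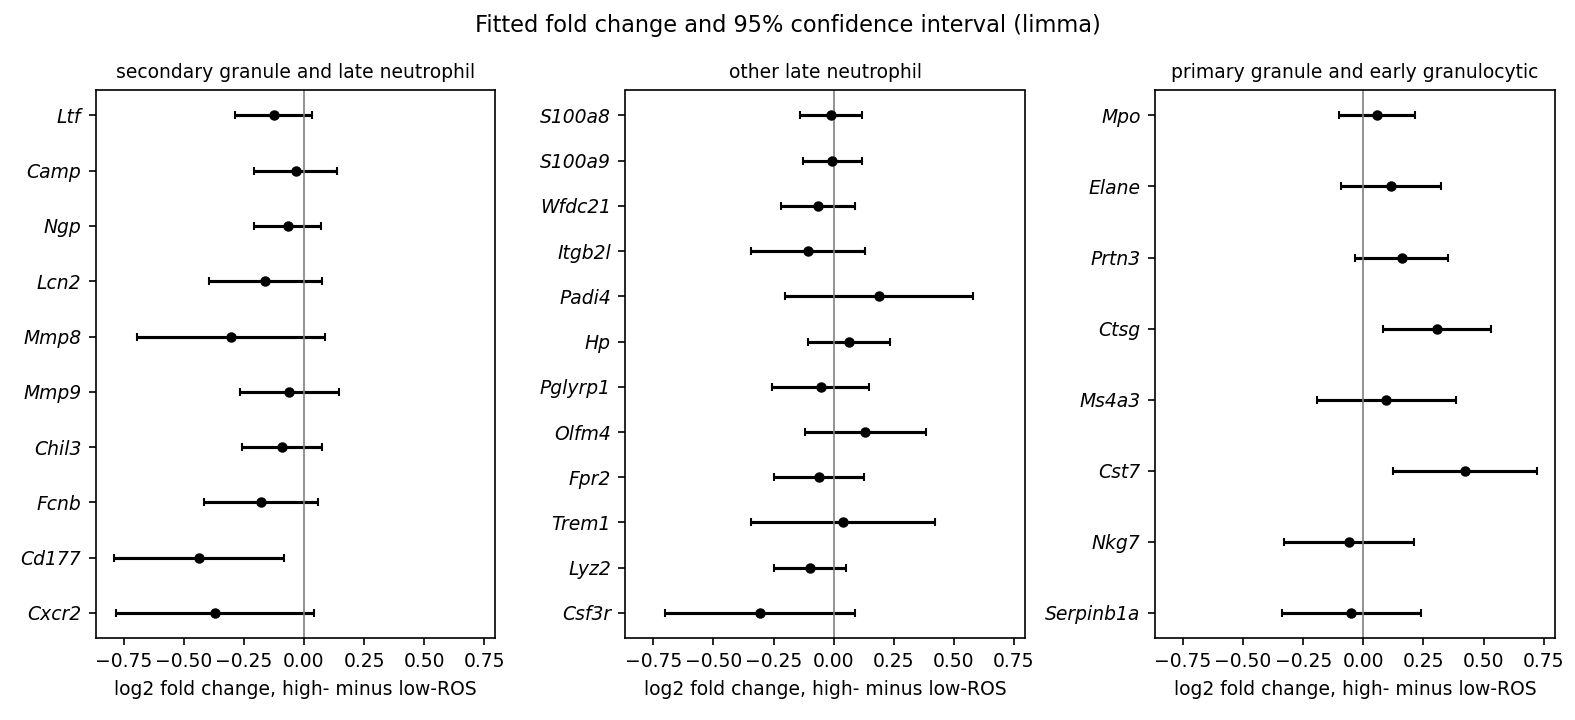
Log2 fold change (high-ROS minus low-ROS, horizontal axis) with its 95% confidence interval for the 10 genes, 12 other late neutrophil genes and 8 primary granule genes. Among the 10 genes, Cd177 has an interval that leaves out 0, and Cst7 and Ctsg do so among the primary granule genes.

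Regulators of granulocyte formation were split, with 4 of 8 measured genes lower and 4 higher and 0 past the adjusted threshold. For Lef1, a transcription factor that acts upstream of C/EBP alpha, the log2 fold change was 0.63 (SE 0.1996), and for Cebpd, C/EBP delta, it was 0.49 (SE 0.177), both higher with groups that did not overlap, where 8.04% of all genes were. Klf5 was lower with groups that did not overlap (log2 fold change -0.28, SE 0.179), where 5.32% of all genes were. For Runx1 it was -0.36 (SE 0.202). Cebpe, the C/EBP factor of the secondary granule stage, is not analysed here, since no probe set carries its name alone.

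Genes listed as markers of CMP, which are not taken from the labels, and genes of other marrow cells were read on the same arrays. The signal of Kit, the receptor of stem cell factor, was 642 ± 96.9 (SD, n = 3) on the low-ROS and 545 ± 19.2 on the high-ROS arrays, and that of Cd34 was 417 ± 71.3 and 584 ± 231. Of the mature neutrophil markers, 2 of 5 were measured, S100a8 and S100a9, and their summed signal was 24868 to 26389 on the low-ROS and 25146 to 25783 on the high-ROS arrays. The 4 genes of eosinophils, basophils and mast cells summed to between 12149.8 and 13643 on the low-ROS and between 10419.7 and 12832 on the high-ROS arrays. Monocyte and macrophage genes, 7 of 8 measured, summed to between 4970.03 and 5597 and between 6223 and 8013, and 4 of them were higher at an unadjusted p under 0.05, where 4.44% of all genes were. The 3 measured B cell genes summed to between 992 and 1438 and between 991 and 1291, the 4 T and NK cell genes to between 298 and 375 and between 325 and 415. The 3 measured erythroid genes summed to between 566 and 649.9 and between 500.3 and 654. The 5 megakaryocyte and platelet genes summed to between 1277 and 1297 and between 702 and 911, most of it from Pf4. Of these 5, 3 had a lower and 2 (Ppbp and Tubb1) a higher fitted level, and 2 (Pf4 and Itga2b) were lower at an unadjusted p under 0.05, where 3.37% of all genes were. The 6 genes listed for CMP (Kit, Cd34, Fcgr3, Fcgr2b, Flt3 and Mpo) summed to between 10210.1 and 10593 and between 10105.1 and 11451. Most of this came from the granule enzyme gene Mpo, at 6543 to 7078 and 6694 to 7494. Of these 6, 2 had a lower and 4 a higher fitted level in high-ROS CMP. No listed marker was at 0 throughout, and the lowest was the globin Hba-a1, at 1 to 8.43. A signal above 0 does not show that a gene is expressed. The low- and high-ROS means of Cd8a (36.1 and 37.1), Ppbp (23.2 and 33.7) and Tubb1 (14.4 and 21.2) also lay below the array medians. For Itga2b the high-ROS mean, 31.9, lay below them, and the low-ROS mean was 64.7. The part of other cells of the marrow in the signals of the late neutrophil genes was not tested.

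Genes with a like course over the arrays were sought among 8147 other genes with a mean signal of at least 100. The standardised log2 values of the 10 members were averaged on each array, and the 5 genes closest to this mean were Prdx2, a peroxiredoxin that breaks down peroxide, Polg, the mitochondrial DNA polymerase, Rnf145, Slc25a38, a mitochondrial glycine carrier, and Ss18l1. The members themselves followed this mean unequally, with a Pearson correlation of 0.95 for Cd177, 0.52 for Camp, 0.25 for Chil3 and -0.061 for Mmp9. The correlation of the 5 genes with it ran from 0.986 to 0.994 over 6 arrays, and 117 genes exceeded 0.9. The points share arrays, depth of labelling and the Gapdh ratio, and the value describes these 6 arrays only. Each of the 5 genes, like most members, was lowest on high-ROS replicate 3. They were picked for their likeness to the members' mean, so this adds no separate result.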

How the data were processed

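Total RNA of sorted CMP was amplified and labelled with biotin and hybridised to one-colour arrays, per the labels' protocols. The authors deposited a table of linear intensities, with 1 value for a probe set on each array; for their summarisation and scaling the method is not stated in these sources. Of 45101 probe sets, 34945 had 1 gene symbol in the platform's annotation, 932 had several, 9160 had none and 64 were controls. For each of 18193 genes the probe set with the highest mean of log2(intensity + 16) was used, and every probe set of the members was also tested alone. No further normalization was applied. Both groups, 3 arrays each, were compared with limma 3.58.1 in R 4.3.3 (lmFit, eBayes with a mean-variance trend, 2-sided, 4 residual and 11.1 total degrees of freedom), adjusted over all genes by the Benjamini-Hochberg method, with a threshold of 0.05. Fold changes are on the scale of signal plus pseudocount. The number of arrays limits the precision.

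The members, lists, tests and alternatives were chosen with earlier results of these data known. Named were all members, the 3 genes of each comparison list with the smallest p, and Ly6g, S100a8, S100a9, Retnlg, Mpo, Elane, Cebpe and Csf3r whatever their p. The marker lists of CMP and of other cells are given as sums, and genes named from them, like Wfdc21, Itgb2l and Klf5, were picked with their values in view. The alternatives were no trend, pseudocounts of 1 and 64, quantile normalization, genes above the median signal, probe set means, one test per probe set, the replicate number as a block, the log2 Gapdh ratio as a covariate and leaving out each array. Promoter sequences are those of RefSeq. The fit was tested on simulated data for this comparison, 10 simulations of 18193 genes with 200 changed. It found 55.3% of those shifted by 1 on the log2 scale and 92.4% of those shifted by 2. Of the genes it called, on average 4.70% had not been shifted. Shifts as small as those of the members were not simulated. The noise was drawn separately for each gene, with no shift shared by the genes of an array. Plots were made in matplotlib 3.10.9 (Python 3.11.15).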

Additional observations from a re-analysis of the deposited data

How the results depend on the processing

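None of the 10 genes passed the adjusted threshold in any of the 15 alternatives (0 in each). Of 150 fold changes of single members, 143 kept their sign and 7 reversed. Many of the 143 could not move. No trend, genes above the median signal, one test per probe set and the replicate block left each member's fold change as it was. Probe set means changed that of Mmp9 only, and the pseudocounts changed the values little. The count is therefore no measure of how firm the direction is. Camp was 0.012 after quantile normalization, and with the Gapdh covariate Camp was 0.041, Cxcr2 0.046, Lcn2 0.052 and Mmp8 0.046. With 1 array left out, Camp ranged from -0.11 to 0.0055, above 0 without low-ROS replicate 3, and Mmp9 from -0.12 to 0.0056, above 0 without high-ROS replicate 2. The median of the 10 was -0.041 with the Gapdh covariate and between -0.21 and -0.096 with 1 array left out. The count of members at an unadjusted p under 0.05, 1 as reported, was 0 without the mean-variance trend and with the Gapdh covariate. With 1 array left out it ranged from 0 to 4. It was 0 when low-ROS replicate 2 or 3 was left out, 4 for low-ROS replicate 1 and 2 for high-ROS replicate 1 or 2. The share of all genes at that p, 3.37% lower and 4.44% higher in the reported fit, was not computed for these settings. These counts therefore cannot be set against it. Members with groups that did not overlap, 4 as reported, were 2 after quantile normalization, where 5.44% of all genes were lower without overlap. They were 4 to 8 with 1 array left out (8.57% to 11.6% of all genes). With probe set means, which change Mmp9 only, they were 5, and the share of all genes was not computed. The count has no value under the block or the covariate. Over all genes, 10 calls became 0 without the trend, 4 with a pseudocount of 64, 17 among genes above the median signal, 3 with the covariate and 1 to 6 with 1 array left out; the cause was not tested. Whether the replicate numbers mark pairs of samples was not settled. Same-numbered arrays correlated at 0.12, 0.097 and 0.0028 in their deviations from the group means. For numbers 1 and 2, each array correlated best with its own number in the other group. For number 3, neither array did. With the replicate number as a block 4 genes were called, 0 of them members. The number of arrays limits what small changes can be seen.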
